A study of Saccharomyces cerevisiae with 18 samples.

Results

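The open reading frames (ORFs) nearest the chromosome ends of budding yeast, Saccharomyces cerevisiae, were examined in 3 strains that lack histone ubiquitin proteases. Systematic ORF names hold the chromosome, the arm and a number that grows from the centromere outward, so the highest numbers on an arm lie closest to its end. On each of the 32 chromosome arms the ORFs with the 5 highest distinct numbers were taken, which gave 162 ORFs, and the YRF1, PAU and COS family genes among them (7, 16 and 9) were left out. The remaining 130 of the 6205 measured ORFs are the outermost ORFs described here, between 2 and 7 on an arm. In RefSeq's gene table for assembly R64, 50 of them have a gene symbol, 42 are listed under the systematic name only and 5 as pseudogenes, and the other 33 are not in it. The selection used names alone and no measured value.

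DOT4, listed below under its other name UBP10, and UBP8 encode proteases that remove ubiquitin from histone H2B, with Ubp8 acting inside the coactivator complex SAGA. Genes close to yeast telomeres are held at low levels by silent chromatin, in which the deacetylase Sir2 and its partners Sir3 and Sir4 spread inward from the end, recruited by Rap1 and the Ku proteins. Ubp10 was first described as a disruptor of telomeric silencing, and yeast chromosome ends also hold families of similar genes for sugar use, transport and cell surface proteins that are mostly needed away from rich medium. Many ends carry the repeated Y' element, in which the YRF1 helicase genes lie. Which of the 130 ORFs lie in such an element is not given in the sources used here.

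Total RNA of a null strain and of the wild type UCC6389 was put on each of 18 arrays with 2 channels, 6 arrays for each genotype. The null strains were the dot4 null (UCC6390), the ubp8 null (UCC6392) and the dot4ubp8 null (UCC6393, called the double null), all grown in YEPD, a rich glucose medium. In each genotype 3 sets are numbered, and each set holds 2 arrays between which the channels of null and wild type RNA are swapped, so values are means of 3 set means. Nothing in the labels says that sets are separate cultures. The p-values therefore cover only array-to-array spread, possibly technical, and each genotype is a single strain. The deposited log2 ratios were read as channel 2 over channel 1 and turned to null over wild type, because only so were the deleted genes low in their own nulls. Read in the labels' order of the strains, every sign would be the opposite. UBP10 lay between -5.57 and -4.27 on the dot4 null arrays and between -5.58 and -3.88 on those of the double null, and UBP8 between -3.25 and -2.31 in the ubp8 null and between -3.79 and -1.49 in the double null. An array of double null set 3 carries the number UCC6392 of the ubp8 null strain, yet both deleted genes were low on it (-4.67 for UBP10 and -3.38 for UBP8). A ratio from a culture cannot tell a change in all cells from one in some of them.

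In the dot4 null the chromosome ends rose broadly. Of the 130 outermost ORFs 93 rose and 12 fell at an adjusted p under 0.05 in the limma fit, where 29.9% of all ORFs rose and 32.1% fell. At least 1.5-fold increases were called in 35 of the outermost ORFs, against 1.84% of all ORFs, and at least 1.5-fold decreases in 3, against 0.951%. The median of the outermost ORFs was 0.28 on the log2 scale, with set medians of 0.31, 0.27 and 0.27, and that of all ORFs was -0.01. All 3 set means lay above 0 for 97 outermost ORFs and below 0 for 18. With the null RNA in channel 1 the median was 0.46, and with it in channel 2 it was 0.15.

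The double null showed a broad rise as well, and the ubp8 null a small one. In the double null 105 outermost ORFs rose and 8 fell, against 35.3% and 35.2% of all ORFs, and the median was 0.38 (set medians 0.37, 0.42 and 0.34). At least 1.5-fold increases were called in 36, against 5.66%, and decreases of that size in 2, against 1.95%. Without the array that carries the other strain number, 104 rose and 7 fell. In the ubp8 null 59 rose and 18 fell, against 30.0% and 28.7%, with a median of 0.08 (set medians 0.13, 0.08 and 0.05). These counts depend on the processing, with 28 risen and 8 fallen without centring, 34 risen with the null RNA in channel 2 alone, and 11 fallen without ubp8 null set 1. A single outermost ORF passed 1.5-fold upward there, against 0.419% of all ORFs, and 2 downward, against 0.338%.

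**Figure D1:**
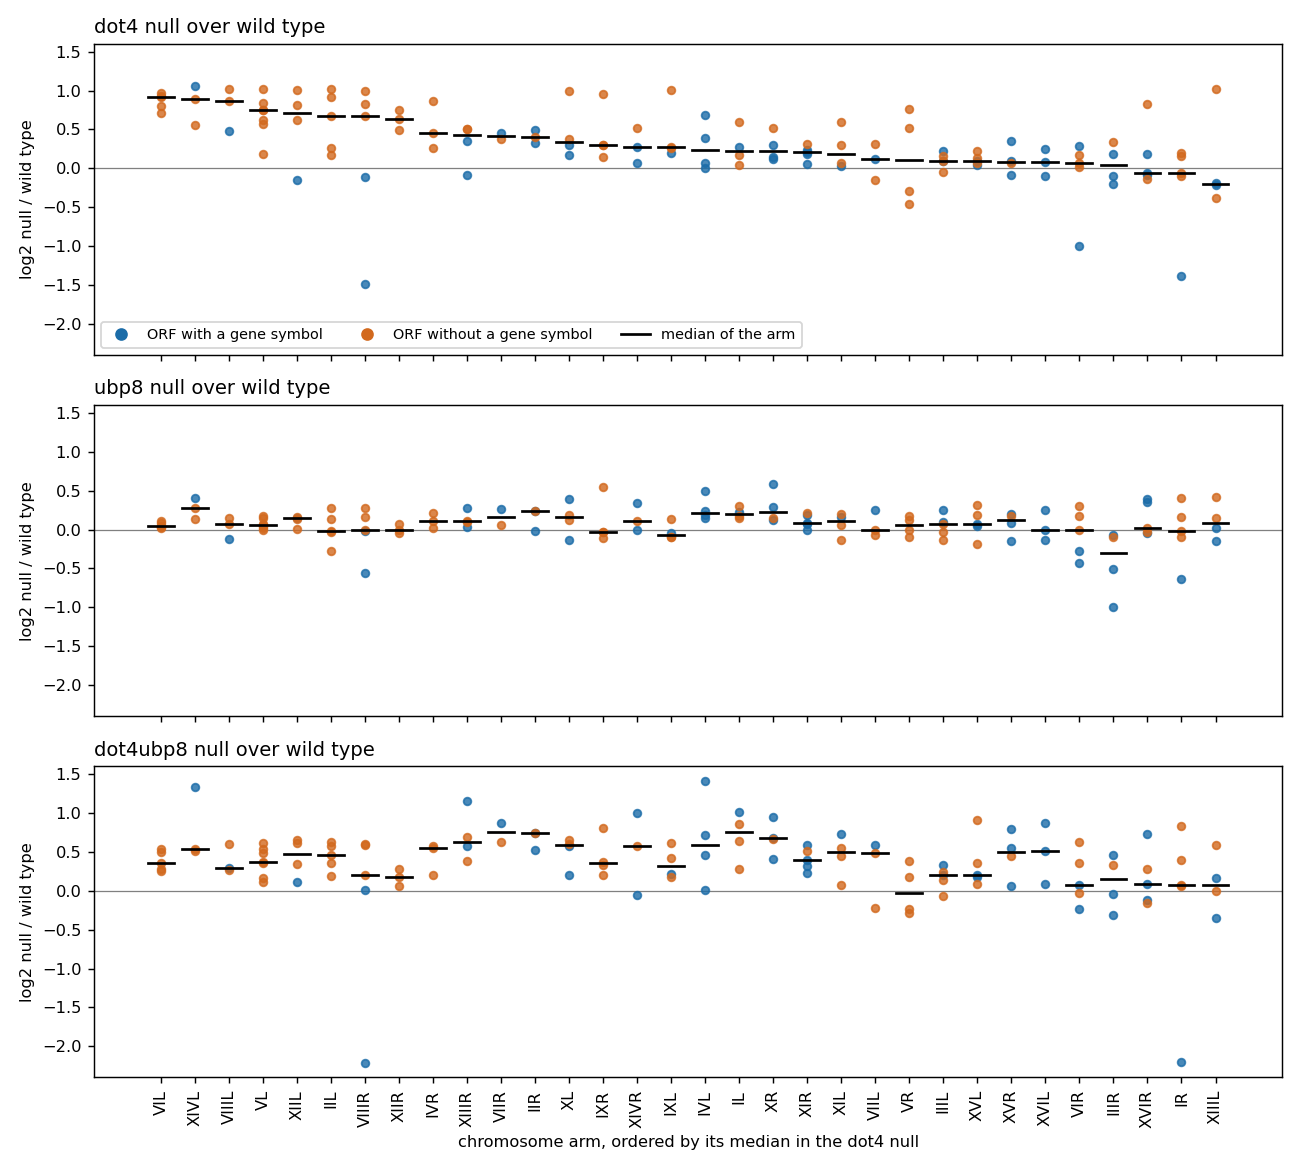
Change of each outermost ORF (log2 null over wild type, mean of 3 set means) on the 32 chromosome arms in the 3 genotypes. Each point is an ORF, blue with a gene symbol and orange without, and black bars are arm medians. Arm medians lie above 0 on 29 (dot4 null), 23 (ubp8 null) and 31 (double null) arms, while 2 acid phosphatase genes on arms IR and VIIIR lie far below 0.

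The rise covered most arms but not to the same degree. In the dot4 null the arm median was above 0 on 29 of 32 arms, on 27 of them in all 3 sets, and past 1.5-fold on 8. The highest arm medians were those of arm VIL (0.92 ± 0.05, SD of the 3 set medians), arm XIVL (0.89 ± 0.10) and arm VIIIL (0.87 ± 0.11), and these 3 lie closer together than their spread. The lowest were those of XIIIL (-0.20 ± 0.06), IR (-0.07 ± 0.02) and XVIR (-0.06 ± 0.01), the only arms with a negative median. Every arm had at least 1 ORF that rose, and on 12 arms all members rose, where 29.9% of all ORFs rose. The same numbers of arms were 29 and 3 in the ubp8 null and 32 and 15 in the double null. By orientation, 24 arm medians were above 0 both with the null RNA in channel 1 and with it in channel 2, and 2 were below 0 in both. Arm XVIR was among the 24, at 0.016 and 0.045, so its negative median over the set means is not seen in either orientation.

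On arm VIL all 5 outermost ORFs rose in the dot4 null, and none of them has a gene symbol. Outermost on the arm, YFL068W read 0.96, 0.90 and 1.04 in the 3 sets. Next inward, YFL067W read 0.93, 0.87 and 0.98, and the innermost of the 5, YFL064C, read 0.80, 0.68 and 0.93. The 5 increases ran from 0.71 ± 0.04 (SE, YFL066C) to 0.97 ± 0.05 (YFL068W). In the ubp8 null the same ORFs lay between 0.02 and 0.11, with limma adjusted p-values from 0.078 to 0.671, and in the double null they lay between 0.25 and 0.54 and all rose. The double null was thus below the dot4 null on this arm, and its contrast to the dot4 null was called in all 5 ORFs. The contrast ran from -0.42 ± 0.06 (YFL067W, limma adjusted p = 0.000269) to -0.66 ± 0.05 (YFL065C, adjusted p = 4.27e-06).

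The next highest medians were those of XIVL and VIIIL, and single ORFs of other arms rose as far, such as YEL077C on VL at 1.02 and YBL113C on IIL at 1.02. On XIVL the largest was DDI2, a cyanamide hydratase gene, at 1.05, 1.08 and 1.03 in the dot4 null, a 2.08-fold rise (limma adjusted p = 3.87e-07). The set values of DDI2 were 0.49, 0.31 and 0.41 in the ubp8 null, and 1.09, 1.39 and 1.52 in the double null, so it rose in all genotypes and most in the double null. Further out on that arm YNL338W (0.89 ± 0.05) and YNL337W (0.55 ± 0.05) rose in the dot4 null. On VIIIL, YHL050C (1.02 ± 0.03) and YHL049C (0.87 ± 0.04) rose with ARN2, a siderophore transporter gene (0.48 ± 0.05). ARN2 fell by 0.13 in the ubp8 null and rose by 0.29 in the double null.

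The 3 arms with negative medians each held ORFs that moved in opposite ways. On XIIIL the outermost ORF, YML133C, rose by 1.02 ± 0.03 in the dot4 null, while YML131W fell by 0.38, ERO1, an oxidase gene of protein folding in the endoplasmic reticulum, fell by 0.22, and COX14, a cytochrome c oxidase assembly gene, fell by 0.18. On XVIR the outermost ORF YPR203W rose by 0.82 ± 0.04 and its neighbour YPR202W fell by 0.13. With the null RNA in channel 2 alone YPR202W read above 0, at 0.11. The arsenic resistance genes ARR1, ARR2 and ARR3 read -0.06, -0.09 and 0.18, none of them called. On IR the acid phosphatase gene PHO11 fell, YAR070C and YAR069C rose by 0.20 and 0.16 (YAR069C read -0.12 with the null RNA in channel 2 alone), and YAR075W and YAR073W read -0.10 and -0.07 and were not called.

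In the double null the order of the arms was another one. Its highest arm medians were those of IL (0.75 ± 0.03), VIIR (0.75 ± 0.04) and IIR (0.74 ± 0.04), which differed by no more than their spread, and its only negative one was that of VR (-0.03 ± 0.03). On VR, YER189W rose by 0.38 ± 0.04 and YER186C by 0.18 ± 0.03, while YER188W fell by 0.23 and YER187W by 0.28. YER188W was positive with the null RNA in channel 1 and negative with it in channel 2 in all 3 genotypes, so its direction is not settled. The double null median was above that of the dot4 null on 23 arms and below it on 9, and on the highest dot4 null arms, VIL, XIVL and VIIIL, it was below (0.36, 0.54 and 0.29). The arm split was not computed without centring of the arrays. Over all outermost ORFs the median difference of the double from the dot4 null was 0.07 with centring and -0.02 without. In the ubp8 null the arm medians ran from -0.30 ± 0.07 (IIIR) to 0.28 ± 0.03 (XIVL), above 0 on 23 arms and in all 3 sets on 19. By orientation, 12 were above 0 in both and 5 below 0 in both, and in the double null 30 were above 0 in both.

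**Figure D2:**
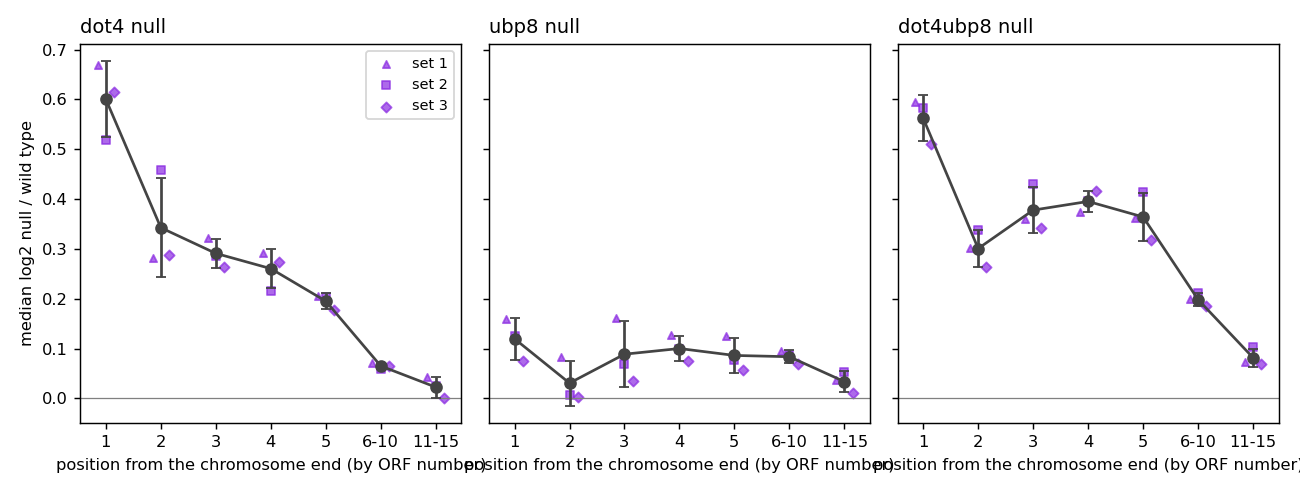
Median change (log2 null over wild type) by position from the chromosome end, counted in ORF numbers, with positions 6 to 10 and 11 to 15 pooled. Black points are means of the 3 set medians, bars their SD, and purple symbols the single sets. The dot4 null falls from 0.60 at position 1 to 0.02 at positions 11 to 15.

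In the dot4 null the median was highest at position 1, which holds mostly ORFs without a symbol. It was 0.60 over the 22 ORFs at position 1, and 0.27, 0.28, 0.25 and 0.20 at positions 2 to 5. Further inward, over ORFs with the same families left out, it was 0.07 at positions 6 to 10 (n = 162) and 0.02 at positions 11 to 15 (n = 166). The set medians at position 1 were 0.67, 0.52 and 0.61, above those of positions 2 to 5 in each set. At position 2 they were 0.28, 0.46 and 0.29, and their mean of 0.34 is the plotted value. With the null RNA in channel 1 the dot4 null medians at positions 1 to 5 were 0.68, 0.40, 0.43, 0.36 and 0.42. With it in channel 2 they were 0.64, 0.50, 0.15, 0.11 and 0.09. Position 1 was highest in both orientations, while positions 3 to 5 all lay below position 2 with channel 2 only. The double null read 0.58, 0.30, 0.42, 0.40 and 0.36 at positions 1 to 5, then 0.20 and 0.06. In the ubp8 null all positions were low, between 0.05 and 0.12 at positions 1 to 5, with 0.10 and 0.04 further in.

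ORFs with and without a gene symbol differed in the dot4 null. Of the 80 without a symbol 64 rose and 4 fell, 33 of them past 1.5-fold upward, and their median was 0.50. Of the 50 with a symbol 29 rose and 8 fell, 2 past 1.5-fold upward, and their median was 0.12. Among all ORFs 29.9% rose, 32.1% fell and 1.84% passed 1.5-fold upward. In the double null the medians were 0.38 and 0.37, and 21 and 15 ORFs passed 1.5-fold upward, against 5.66% of all ORFs. In the ubp8 null both medians were 0.08. With the null RNA in channel 2 alone 18 with a symbol rose and 10 fell in the dot4 null, against 51 and 8 without, and the ubp8 null median of ORFs with a symbol was 0.0037. Symbol and position overlap, since 37 of the 80 ORFs without a symbol lay at positions 1 and 2 and 7 of the 50 with one. At positions 1 and 2 the dot4 null medians were 0.62 over the 37 ORFs without a symbol and 0.05 over the 7 with one. At positions 3 to 5 they were 0.32 over 43 ORFs without a symbol and 0.14 over 43 with one. In the dot4 null the median of ORFs without a symbol was 0.52 in both orientations, and that of ORFs with one was 0.23 with the null RNA in channel 1 and 0.06 with it in channel 2.

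**Figure D3:**
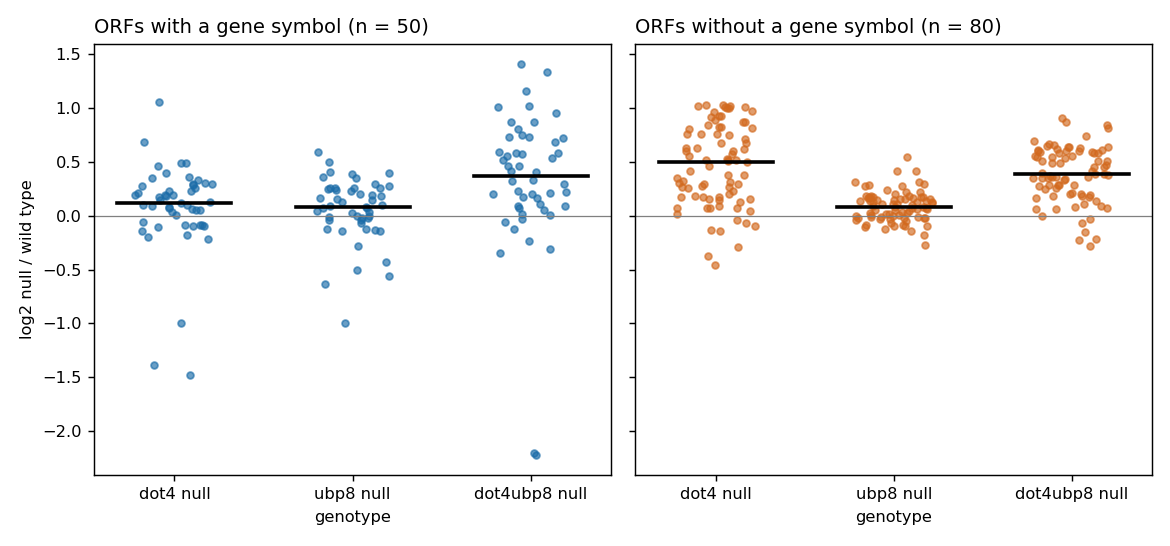
Change of the outermost ORFs (log2 null over wild type) in the 3 genotypes, for 50 ORFs with a gene symbol on the left and 80 without on the right. Points are ORFs, spread sideways for display, and black bars are medians, which are 0.12, 0.08 and 0.37 on the left and 0.50, 0.08 and 0.38 on the right.

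A group of 9 ORFs without a symbol was picked out because its values lay close to those of the left-out YRF1 genes. The 7 YRF1 genes of the outermost positions lay between 0.998 and 1.04 in the dot4 null, between 0.12 and 0.17 in the ubp8 null and between 0.55 and 0.66 in the double null. By genotype, 11 (dot4 null), 42 (ubp8 null) and 35 (double null) outermost ORFs lay within 0.05 of these ranges. Within 0.05 of these ranges in all 3 genotypes lay YBL113C, YEL077C, YFL068W, YHL050C, YHR219W, YIL177C, YJL225C, YLL066C and YML133C, of which YLL066C was at position 2 and all others at position 1. YBL113C, for example, read 1.04, 0.99 and 1.03 in the dot4 null, 0.16, 0.13 and 0.12 in the ubp8 null and 0.63, 0.65 and 0.62 in the double null. YEL077C and YIL177C read -0.0033 and -0.01 in the ubp8 null when its RNA was in channel 1 alone. Whether the spots tell near-identical copies apart was not tested, here or in the gene families described below. Without these 9 the median of the outermost ORFs lay 0.26 above that of all ORFs in the dot4 null.

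Contrasts tested the difference between genotypes for each ORF. The dot4 null was above the ubp8 null in 71 outermost ORFs and below it in 15, against 27.9% and 30.2% of all ORFs. The 4 largest were YFL067W, YBL113C, YHL050C and YIL177C, and the 4 largest the other way were PHO12, YML131W, PHO11 and HXK1. The double null was above the ubp8 null in 98 and below it in 7, against 23.2% and 21.0%, led by the alcohol dehydrogenase gene ADH7 (0.96 ± 0.06) and DDI2 (0.93 ± 0.09). The double null was above the dot4 null in 50 outermost ORFs and below it in 40, against 29.0% and 29.2%. Without centring of the arrays this last split was 24 and 37, so its balance depends on the centring.

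The counts of this contrast differed by class. Of the ORFs with a symbol 30 were higher in the double null and 6 lower, with a median difference of 0.26. Of the 80 without a symbol 20 were higher and 34 lower, with a median difference of -0.03. Within these the groups differed, with 7 higher and 25 lower among the 42 listed under a systematic name only (median -0.39) and 13 and 9 among the 33 not in the table (median 0.08). Without centring the counts were 18 and 4 with a symbol and 6 and 33 without. Against the sum of the single nulls the double null was higher in 24 outermost ORFs and lower in 35, where 11.9% and 8.43% of all ORFs were called. Among ORFs with a symbol 17 were higher and 1 lower, and among those without 7 were higher and 34 lower. Without centring 9 with a symbol were higher and 31 without one lower. With channel 1 alone 7 with a symbol were higher and 4 lower, and with channel 2 alone 22 without a symbol were higher and 37 lower. The counts over all outermost ORFs were 9 and 31 without centring, with arrays scaled to a common spread 15 and 38, with the null RNA in channel 1 alone 8 and 37, and in channel 2 alone 45 and 38. For ORFs with a symbol the median of this contrast was 0.14, and with channel 1 alone it was -0.03.

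**Figure D4:**
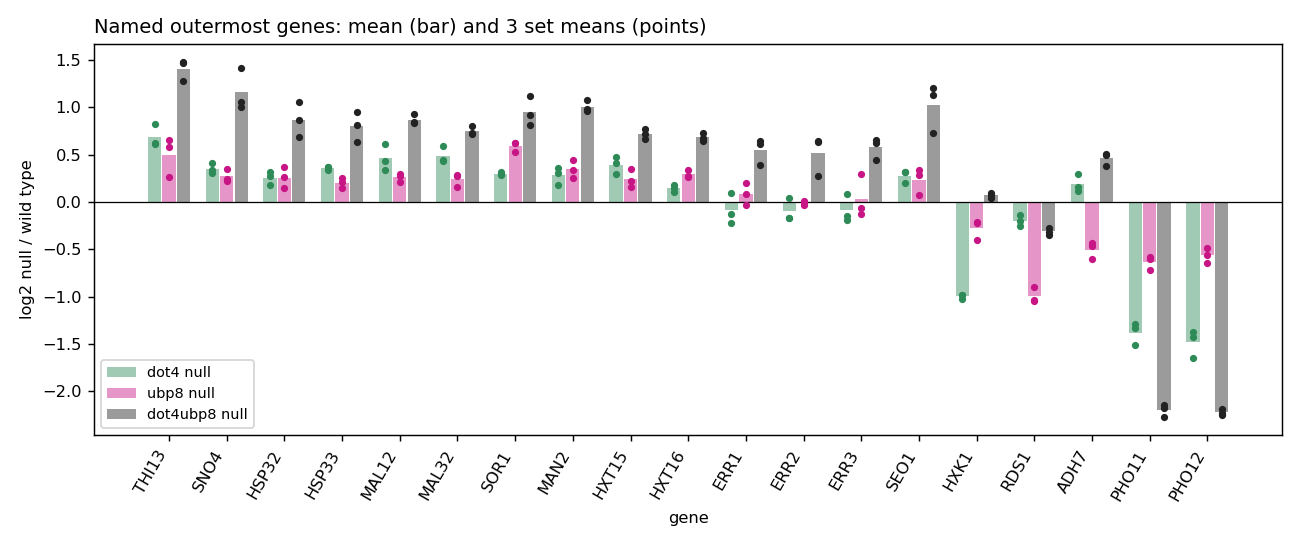
Change (log2 null over wild type) of 19 named outermost genes in the dot4, ubp8 and double null. Bars are means and points the 3 set means. THI13 reaches 1.41 in the double null, PHO11 and PHO12 lie near -2.2 there, and HXK1 is near -1 in the dot4 null but at 0.07 in the double null.

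Among the outermost genes of vitamin and stress functions THI13, SNO4, HSP32 and HSP33 were higher in the double null than in either single null. THI13, a gene of thiamine precursor synthesis on arm IVL, read 0.83, 0.62 and 0.61 in the dot4 null, 0.65, 0.58 and 0.26 in the ubp8 null and 1.47, 1.28 and 1.48 in the double null, so all double null sets were above all others. Its 2.65-fold rise there had a limma adjusted p of 3.44e-08. Of 8 thiamine and vitamin B6 genes measured, 7 rose in the dot4 null and 8 in each of the other genotypes, all 8 past 1.5-fold in the double null, where 5.66% of all ORFs were. SNO4, HSP32 and HSP33, relatives of the chaperone gene HSP31 at 3 chromosome ends, rose in every genotype. SNO4 read 0.34, 0.30 and 0.41, then 0.24, 0.35 and 0.22, and in the double null it rose by 1.16 ± 0.07. HSP31 itself, which is not an outermost ORF, read -0.13 in the dot4 null, not called, and rose by 1.02 in the ubp8 null, and its double null differed from the ubp8 null by -0.16, not called. The other two reached 0.87 ± 0.06 (HSP32) and 0.80 ± 0.05 (HSP33) in the double null. With the null RNA in channel 2 alone HSP32 read -0.0007 in the dot4 null.

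Most genes of maltose and sucrose use rose in each genotype. Of 14 measured, 9 rose and 1 fell in the dot4 null, 8 and 2 in the ubp8 null, and 12 rose in the double null, where 29.9%, 30.0% and 35.3% of all ORFs rose. Among the outermost ORFs, the maltase genes MAL12 and MAL32 rose by 0.46 ± 0.05 and 0.49 ± 0.04 in the dot4 null and by 0.87 ± 0.05 and 0.75 ± 0.04 in the double null. MAL31, the maltose permease gene beside MAL32, rose by 0.33 ± 0.05 and 0.53 ± 0.05, and read -0.02 in the ubp8 null. The isomaltase gene IMA4 read 0.36, 0.27 and 0.26, then 0.49, 0.49 and 0.20, and 0.39, 0.37 and 0.96 in the double null. The maltose permease genes MPH2 and MPH3 rose by 0.46 and 0.42 in the double null, and in the dot4 null they read 0.07, which was not called, and 0.12.

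Among the outermost ORFs the polyol dehydrogenase and hexose transporter genes SOR1, MAN2, HXT15 and HXT16 rose in all 3 genotypes, and SOR2 was not called. SOR1, a sorbitol dehydrogenase gene, read 0.32, 0.30 and 0.28 in the dot4 null, 0.62, 0.53 and 0.63 in the ubp8 null, the largest increase of an outermost ORF there, and 0.81, 0.92 and 1.12 in the double null. The groups of 3 did not overlap. MAN2, a mannitol dehydrogenase gene, read 1.08, 0.96 and 0.98 in the double null and rose by 0.28 and 0.35 in the dot4 and ubp8 null. Its double null value exceeded the sum of the single nulls by 0.38 ± 0.08 (limma adjusted p = 0.00739). SOR2 is a close copy of SOR1, and its double null sets ran from -0.26 to 0.32. Of 7 hexose transporter genes 4, 6 and 6 rose in the dot4, ubp8 and double null, against the same 29.9%, 30.0% and 35.3%, with HXT15 at 0.72 ± 0.04 and HXT16 at 0.68 ± 0.03 in the double null.

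The 3 enolase-related genes were called in the double null and in neither single null. ERR1 read 0.10, -0.13 and -0.23 in the dot4 null, 0.08, -0.04 and 0.20 in the ubp8 null and 0.65, 0.61 and 0.39 in the double null. ERR2 and ERR3 lay at 0.51 ± 0.07 and 0.57 ± 0.08 in the double null. Over the 3 genes the limma adjusted p-values ran from 0.201 to 0.349 in the dot4 null and from 0.307 to 0.927 in the ubp8 null. The contrast of the double null to the sum of the single nulls was 0.55 (ERR1), 0.62 (ERR2) and 0.63 (ERR3), all called. The 3 genes are close copies at 3 ends, and whether their spots tell them apart was not tested. SEO1, a permease gene on arm IL, read 0.32, 0.32 and 0.20, then 0.28, 0.07 and 0.34, and 1.13, 1.20 and 0.73 in the double null. With the null RNA in channel 2 alone SEO1 read -0.14 in the dot4 null and -0.08 in the ubp8 null, so its rise in the single nulls rests on channel 1.

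Other transporter genes of the chromosome ends changed by differing amounts. GEX1 and GEX2, glutathione exchanger genes, rose by 0.22 and 0.19 in the dot4 null and by 0.33 and 0.58 in the double null. The vacuolar amino acid transporter genes VBA3 and VBA5 rose by 0.10 and 0.23 in the dot4 null, 0.10 and 0.18 in the ubp8 null and 0.20 and 0.40 in the double null. VBA3 read -0.0737 (dot4 null) and -0.024 (ubp8 null) when the null RNA was in channel 2 alone. VTH1 and VTH2, relatives of a vacuolar sorting receptor gene, rose by 0.20 and 0.17 in the dot4 null and by 0.22 and 0.21 in the double null. In the ubp8 null VTH2 fell by 0.13 and VTH1 read -0.04, not called. FEX1 and FEX2, fluoride exporter genes, rose by 0.09 and 0.08 in the dot4 null and fell by 0.14 and 0.13 in the ubp8 null. Of the arsenic resistance genes ARR3, the arsenite transporter gene, rose by 0.35 ± 0.10 (ubp8 null) and 0.73 ± 0.10 (double null), ARR2 by 0.39 and 0.09, while ARR1, their regulator gene, fell by 0.12 in the double null. MCH2, a relative of monocarboxylate transporters, rose by 0.73 ± 0.06 in the double null against 0.03 ± 0.06, not called, in the dot4 null. YPS5, a yapsin protease relative, rose by 0.59 ± 0.03 in the double null.

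Against this rise stood 2 acid phosphatase genes, close copies on separate chromosomes, and whether their spots tell them apart was not tested. PHO11, on arm IR, read -1.52, -1.29 and -1.33 in the dot4 null, -0.72, -0.60 and -0.59 in the ubp8 null and -2.17, -2.15 and -2.28 in the double null. PHO12, on arm VIIIR, read -1.65, -1.37 and -1.43, then -0.64, -0.49 and -0.56, and -2.23, -2.19 and -2.25. The genotypes did not overlap for either gene, and the falls in the double null were 4.59-fold and 4.66-fold (limma adjusted p = 1.7e-10 and 2.52e-10). The difference from the sum of the single nulls, -0.18 ± 0.08 for each, was not called. They were the outermost ORFs called at least 1.5-fold lower in the double null, and in the dot4 null HXK1 was called so with them.

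HXK1 gave the largest departure from the sum of the single nulls. This gene encodes a hexokinase that is held low on glucose. It read -0.99, -0.98 and -1.02 in the dot4 null, -0.21, -0.40 and -0.22 in the ubp8 null and 0.10, 0.07 and 0.04 in the double null. The double null exceeded the sum of the single nulls by 1.35 ± 0.06 (limma adjusted p = 1.38e-06) and was not called against the wild type (adjusted p = 0.103). On arm IIIR, RDS1, which encodes a zinc cluster regulator, read -0.90, -1.04 and -1.05 in the ubp8 null, the largest decrease among the outermost ORFs there, and -0.32, -0.35 and -0.28 in the double null. Its neighbour ADH7 read -0.44, -0.61 and -0.47 in the ubp8 null and 0.51, 0.49 and 0.37 in the double null. Both exceeded the sum of the single nulls, by 0.88 ± 0.06 (RDS1) and 0.77 ± 0.08 (ADH7). IRC7, a cysteine metabolism gene on arm VIR, rose by 0.29 ± 0.10 in the dot4 null and fell by 0.43 in the ubp8 null, and read -0.35, -0.01 and -0.34 in the double null, which was not called.

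Of the 35 departures in the other direction 34 were ORFs without a symbol. YIR042C on arm IXR read 0.95, 0.95 and 0.99 in the dot4 null, 0.56, 0.60 and 0.48 in the ubp8 null and 0.72, 0.80 and 0.91 in the double null, which was below the sum (contrast -0.70 ± 0.06). YFL065C, YHL049C and YNL338W were likewise below the sum, with contrasts of -0.71, -0.66 and -0.66. Each of these 4 rose in the dot4 null and remained above the wild type in the double null. YML131W fell by 0.38 in the dot4 null, rose by 0.42 in the ubp8 null and read -0.00, 0.01 and -0.03 in the double null, which differed from the sum by -0.05 ± 0.05 and was not called.

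Genes of the silencing machinery were called in shares not far from those of all ORFs, each with a change of less than 1.5-fold. Of 19 measured, 7 rose and 4 fell in the dot4 null, 7 and 4 in the ubp8 null and 7 and 5 in the double null, where 29.9% and 32.1%, 30.0% and 28.7%, and 35.3% and 35.2% of all ORFs did. The values over all genotypes lay between -0.39 and 0.27. SIR2 read -0.08 in the dot4 null, not called, and fell by 0.16 in the double null. SIR3 rose by 0.15 in the dot4 null, and SIR4 was not called in any genotype. The largest changes were decreases of YKU80, which encodes a Ku subunit, by 0.36 in the dot4 null, and of NPT1, a nicotinate salvage gene that helps supply the NAD+ used by Sir2, by 0.39 in the double null. Whether these bear on the chromosome ends was not tested.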

How the data were processed

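Each array file deposited by the authors holds 1 log2 ratio for every ORF; background correction, normalization and array design were not given in the sources used here. The log2 base follows from a stand-in value of 16.61 at 2 values, treated as missing with 9 empty ones. Each array was centred on its median, turned to null over wild type, and the 2 arrays of a set were averaged, giving 9 set means. Genotype means and 4 contrasts were fitted with limma 3.58.1 (lmFit, eBayes) in R 4.3.3 over all 6205 ORFs, with Benjamini-Hochberg adjustment within each comparison and a threshold of 0.05. Errors are limma standard errors (n = 3 set means) where no other is named, and precision is limited by how many arrays there are. Arm, position and class medians were not tested. The fit was tested on simulated set means that held no channel effect, so that test does not cover the differences by orientation. The outermost ORFs and the gene lists were chosen with earlier results of these data known. Genes were named by rule: the 10 largest increases and 6 largest decreases in each genotype with 3 set means on the same side, the 4 largest each way in each contrast, outermost members of the gene lists, members of the 3 highest and 3 lowest arms, the largest called ORF of other arms, and the silencing genes. MPH2, MPH3, FEX1, FEX2 and YER186C fall outside it and were chosen after their values were seen. The rule also picks IMD2, AAD3, AAD15, FLO10, YAL069W, YDR544C, YLR463C and YOL162W, which are not described above. In the dot4 null IMD2 and AAD3 fell by 0.11 and 0.10, AAD15 and FLO10 were not called, and YAL069W and YDR544C rose by 0.60 and 0.87. Symbols come from RefSeq (R64), which matched 5705 ORFs.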

Additional observations from a re-analysis of the deposited data

Results flagged for a closer look

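The double null differed from the sum of the single nulls, by the limma contrast with Benjamini-Hochberg adjustment over all ORFs, in 24 outermost ORFs that were higher and 35 that were lower. Among all ORFs 11.9% were higher and 8.43% lower. The largest differences of outermost ORFs in each direction are given on the log2 scale. HXK1 exceeded the sum by 1.35, RDS1 by 0.88, ADH7 by 0.77 and the enolase-related gene ERR3 by 0.63. YFL065C was below it (-0.71), as were YIR042C (-0.70), YHL049C (-0.66) and YNL338W (-0.66). The contrast uses the wild type channel of all 3 genotypes. The count of higher ORFs depends on the orientation and the centring of the arrays.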

How the results depend on the processing

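Counts are of the 130 outermost ORFs unless said otherwise. Without centring, 6 fell in the dot4 null (12 with centring), 28 rose and 8 fell in the ubp8 null with 0 at least 1.5-fold higher, 7 were lower in the dot4 than in the ubp8 null, 24 were higher in the double than in the dot4 null, 4 were lower in the double than in the ubp8 null, and 9 exceeded the sum of the single nulls. With arrays scaled to a common spread, 2 were at least 1.5-fold higher and 4 at least 1.5-fold lower in the ubp8 null. On the same scaling 20 were at least 1.5-fold higher in the double null (36 without scaling), its median was 0.33, and 15 exceeded the sum. With the null RNA in channel 1 alone the dot4 null median was 0.46, 10 were at least 1.5-fold higher in the ubp8 null, 28 higher in the double than in the dot4 null and 8 above the sum. With channel 2 alone the dot4 null median was 0.15, 6 were at least 1.5-fold lower in the dot4 and 4 in the double null, 34 rose in the ubp8 null with 0 at least 1.5-fold higher, and 45 exceeded the sum. Direction turned with channel 1 alone for YER188W (0.39 in the dot4 and 0.17 in the double null), YAR073W (-0.008 in the double null), YEL077C (-0.0033) and YIL177C (-0.01), both in the ubp8 null. It turned with channel 2 alone for SEO1 (-0.14 in the dot4 and -0.084 in the ubp8 null), VBA3 (-0.0737 and -0.024), YAR069C (-0.12), AAD3 (0.14), YPS5 (-0.0833), YOL162W (-0.0497), HSP32 (-0.0007) and YPR202W (0.11) in the dot4 null, and for YER188W (-0.26) and MCH2 (-0.18) in the ubp8 null. The causes were not tested.

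Leaving the families out first gave 165 ORFs, whose dot4 null median lay 0.24 above that of all ORFs. Of these, 5 were at least 1.5-fold lower in the dot4 null and 3 at least 1.5-fold higher in the ubp8 null. The dot4 null was below the ubp8 null in 31 of them, and 37 were above the sum. Keeping the families gave 162, with medians of 0.30 in the dot4 and 0.45 in the double null and 56 at least 1.5-fold higher in the dot4 null. Order in the reference table gave 125, with medians 0.22 (dot4 null) and 0.34 (double null) above those of all ORFs. Of these, 2 were at least 1.5-fold higher in the ubp8 null and 24 were lower in the dot4 than in the ubp8 null. An alternative chosen after seeing the data left out the 9 ORFs close to the YRF1 genes. Its dot4 null median lay 0.26 above that of all ORFs. Leaving out each ubp8 null set in turn, the ORFs lower in the ubp8 null numbered 11 to 13 (11 without set 1, against 18), and those at least 1.5-fold higher 0 to 1 (0 without set 1). Same-numbered sets of different genotypes deviated with correlations from -0.26 to 0.27, and differently numbered ones from -0.33 to 0.29. This does not settle whether the set numbers pair the samples, and the reported fit did not use them as pairs. With the set number as a replicate block 94 rose and 11 fell in the dot4 null, 57 and 18 in the ubp8 null and 103 and 9 in the double null. By class, ORFs with a symbol above the dot4 null in the double null numbered 18 without centring (30 reported), those above the sum 9 without centring and 7 with channel 1 alone (17 reported), and those without a symbol above the sum 22 with channel 2 alone (7 reported). Other counts and medians over all outermost ORFs under these alternatives, centring on interior ORFs, genotypes fitted alone, the array-level fit and leaving out the array with the other strain number kept within 1.5 times of the reported value or within its spread. The alternative without near-identical proteins was not run, as no protein sequences were used here. Channel intensities were not used here, so dim spots were not filtered and signal over background is unknown.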
